A study of Cynara cardunculus with 36 samples.

Results

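Imperial Star (IS) and Opal (OP) are cultivars of globe artichoke (Cynara cardunculus var. scolymus), compared here in RNA from the heart of the head at day 0 of cold storage. The comparison rests on 6 of the 36 libraries in the series, 3 titled IS-T1 and 3 titled OP-T1. The other libraries are of Green Queen (GQ) and Green Globe Improved (GGI) at day 0 and all 4 cultivars at days 7 and 14, with 3 libraries per cultivar and day. All plants grew in a field under GA (gibberellin, a growth hormone given to bring on early flowering). The mature heads were chilled for acclimation before the first sampling, so day 0 is not the moment of harvest, and every day 0 group shares that cold period. The labels call the replicates biological without naming plants, and the p-values below therefore cover only how far these libraries vary, which may in part be technical. Library numbers ran from 1 to 3 in OP and from 4 to 6 in IS, and an effect of library order cannot be told apart from cultivar.

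The artichoke head is an immature flower head, and its heart is the fleshy base with the tender inner bracts. The tissue is rich in caffeoylquinic acids such as chlorogenic acid, and it browns when polyphenol oxidases turn such phenolics into quinones. In counts from whole hearts, fewer cells of a type and less RNA per cell cannot be told apart. Gene models carry an ID without a gene name in the files, and 0 of 28632 IDs matched the 30275 genes of the RefSeq table for CcrdV1.1. No gene function, tissue marker or sequence can therefore be attached to the values, and at most 2 gene models per direction are named.

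The 6 libraries held between 33.3 and 39.2 M reads in gene models (M as in CPM, the reads of a gene model per M reads of its library), and each detected 21701 to 22492 gene models. Between 9.65% and 13.7% of their listed reads fell outside gene models. Every pair of replicates differed by more than sampling noise, with a chi-square of at least 55.2 per degree of freedom.

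The cultivars were apart before storage. The first principal component of log2 CPM over the 6 libraries held 68.7% of the variance, with OP libraries at -133, -83.3 and -77.0 and IS libraries at 82.6, 103 and 108. OP replicate 3 lay farthest out on that component, while IS replicate 1 stood off from its groupmates on the second, at -77.8 against 7.63 and 49.0. Over the 9 pairs of an IS and an OP library, 10.2% to 17.8% of the gene models tested differed by over 4-fold. Within a cultivar that share was 2.18% to 6.38% in IS and 2.47% to 5.31% in OP, so the ranges did not overlap. The median SD of log2 CPM between libraries of a cultivar was 0.293 in IS and 0.288 in OP.

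With all day 0 libraries, OP lay beside GQ, and IS lay on the far side of GGI along the first component. OP and GQ libraries differed by over 4-fold in 3.40% to 8.31% of gene models, a range that reaches into that between OP libraries.

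**Figure D1:**
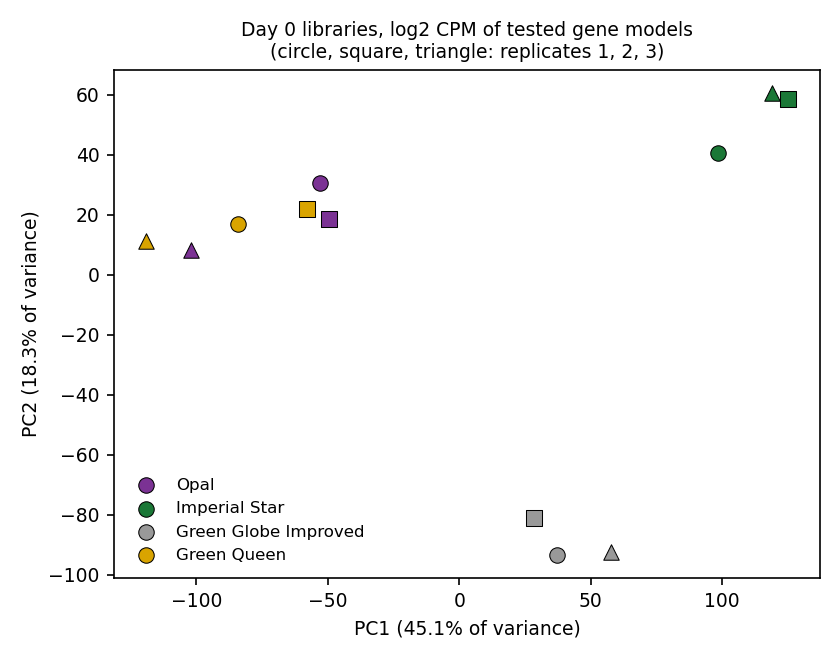
Principal components of log2 CPM in the 12 day 0 libraries, with PC1 (45.1% of the variance) across and PC2 (18.3%) up; each point is 1 library and shapes mark replicates. IS libraries sit at 98.4 to 125 on PC1, GGI at 28.3 to 57.6, and OP (-102 to -49.5) and GQ (-119 to -58.0) share the left side.

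Of 20628 gene models tested, 6261 or 30.4% were called between IS and OP (edgeR quasi-likelihood test, adjusted p under 0.05). In IS 2999 were higher (14.5%) and 3262 were lower (15.8%). TMM scaling sets the centre of this comparison, and the median log2 fold change over all tested was 0. That median was 5.13e-15 in the fit of all 36 libraries, where the calls were 638 higher and 1049 lower. The size varied widely. Among the called, 2607 differed by under 2-fold by the fitted value, and 823 were higher and 1033 lower by over 4-fold. The median called difference was 2.32-fold for those higher in IS and 2.25-fold for those lower, and it was the same with gene models without reads in one cultivar set to the bound from a floor of 3 counts over the group. Beyond 16-fold lay 311 that were higher and 451 that were lower in IS. These include 103 with 0 reads in all OP libraries and 148 with 0 reads in all IS libraries, whose fitted values are no bound. At their bound the counts beyond 16-fold were 300 and 418. In 6019 of the 6261 calls the IS and OP libraries did not overlap, whereas 42.9% of all tested gene models had no overlap.

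The number of calls depended on which libraries entered the fit. It was 3897 without IS replicate 3 and 3954 without OP replicate 3. It was 4069 with the 6 libraries alone and 1687 in a fit of all 36 libraries, and the cause of the lower counts was not tested. Of these 4069 and 1687 calls, 3909 and 1641 were among the 6261 in the same direction.

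**Figure D2:**
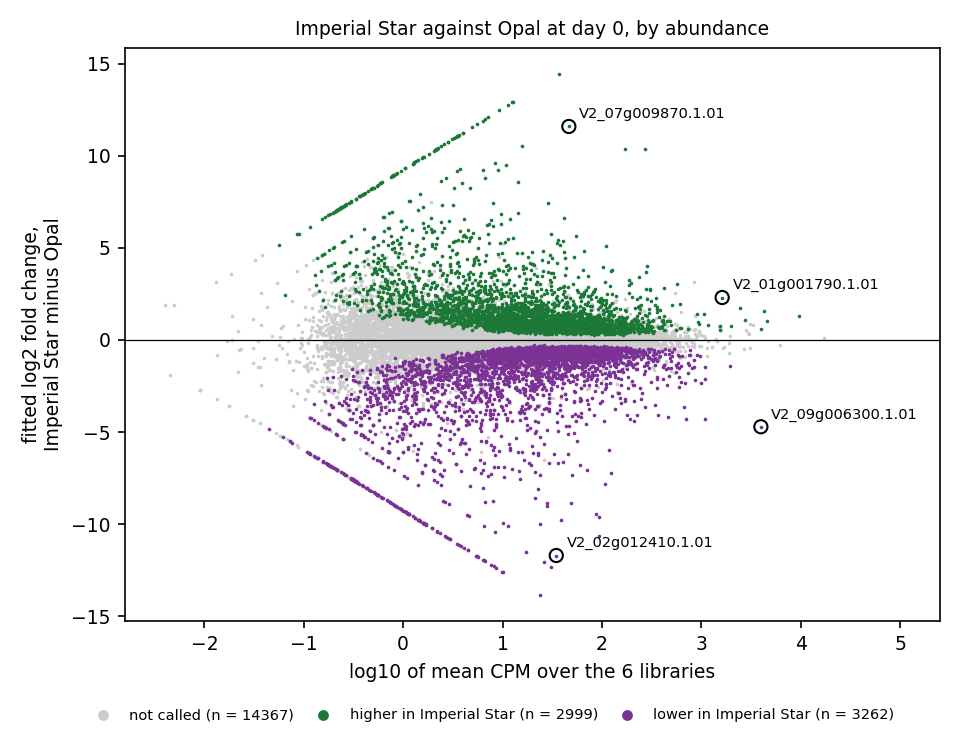
Fitted log2 fold change, IS minus OP, against the log10 of the mean CPM over the 6 day 0 libraries; each point is 1 tested gene model, and the 37 without reads in these libraries are not drawn. Called gene models (2999 higher, 3262 lower) occur at every abundance; the straight upper and lower edges are gene models without reads in one cultivar, and circles mark the 4 named ones.

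The difference was not limited to weakly transcribed gene models. At over 100 CPM, 718 of 2200 were called (32.6%), against 597 of 2385 at under 1 CPM (25.0%). Among the called, the median difference was 1.80-fold over 100 CPM and 3.66-fold from 1 to 10 CPM. Under 1 CPM it was 16.1-fold, or 12.9-fold at the bound. At low counts only large differences tend to be called, so these medians cannot tell whether differences shrink with abundance. Among the 100 most abundant gene models, 37 were called, 16 higher and 21 lower in IS, where 30.4% of all tested were called. Of these 100, 9 were called by over 4-fold, against 823 higher and 1033 lower among all 20628. As a share of all reads in gene models, those called higher in IS took 21.2% to 23.1% of IS libraries and 9.53% to 11.4% of OP libraries. Those called lower took 9.51% to 10.8% in IS and 21.2% to 25.2% in OP. These shares describe the calls and are no separate test.

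V2_09g006300.1.01 was the most abundant gene model called lower in IS by over 4-fold, and ranked 6 in mean CPM over the 6 libraries. It stood at 7420, 4740 and 7150 CPM in OP replicates 1 to 3. IS replicates 1 to 3 held 270, 260 and 209 CPM. The lowest OP library was thus far above the highest IS library, with means of 6440 ± 1480 and 247 ± 32.6 CPM (SD, n = 3 each). IS was lower by a log2 fold change of -4.71, with an SE of 0.43 (adjusted p = 5.91e-05, edgeR). GGI ranged from 1980 to 5260 CPM and GQ from 2780 to 5500 CPM at day 0, so every library of the other cultivars lay above every IS library.

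V2_02g012410.1.01 had the largest fitted deficit in IS among the candidates for naming. OP replicates 1 to 3 held 26.6, 79.5 and 68.3 CPM, from 7726 reads in all. In IS there were 1, 0 and 1 reads, or 0.0157 ± 0.0136 CPM against 58.2 ± 27.9 CPM in OP (SD, n = 3 each). Reads per library total were 3930 times higher in OP, and the 95% Clopper-Pearson interval, from 1090 to 32500, covers counting error only (edgeR, adjusted p = 6.07e-06). All GGI libraries (50.3 to 101 CPM) and all GQ libraries (26.8 to 30.5 CPM) carried the transcript, so at day 0 its near absence was seen in IS alone of the 4 cultivars.

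V2_07g009870.1.01 showed the reverse, with transcripts in IS and almost none in OP. IS replicates 1 to 3 held 44.7, 99.3 and 90.7 CPM (mean 78.2 ± 29.3, SD, n = 3). Each OP library held 1 read, against 10601 reads in IS, which per library total is 3470 times as many (95% Clopper-Pearson interval from 1190 to 16800). The adjusted p was 0.0149 (edgeR), and from 6.69e-07 to 0.0556 over the alternatives. The call was lost without OP replicate 3, where that p was 0.0556. GQ carried the transcript in all its day 0 libraries, at 9.47 to 25.7 CPM. GGI was split, with 0 reads, 4627 reads and 2 reads in replicates 1 to 3. In the fit of the 6 libraries alone, which leaves out these GGI libraries, the adjusted p was 0.000369.

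V2_01g001790.1.01 was the most abundant gene model called higher in IS by over 4-fold, ranking 24. OP replicates 1 to 3 held 592, 490 and 298 CPM. IS replicates 1 to 3 held 2660, 1840 and 2300 CPM. All IS libraries lay above all OP libraries, with means of 2270 ± 410 and 460 ± 150 CPM (SD, n = 3 each) and a log2 difference of 2.30 with an SE of 0.35 (adjusted p = 0.00121, edgeR). GGI, at 1980 to 2610 CPM, was in the IS range, and GQ, at 184 to 455 CPM, was near or below OP. In the fit of all 36 libraries it was not called (edgeR, adjusted p = 0.25), and over all alternatives the adjusted p ran from 1.43e-10 to 0.25.

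**Figure D3:**
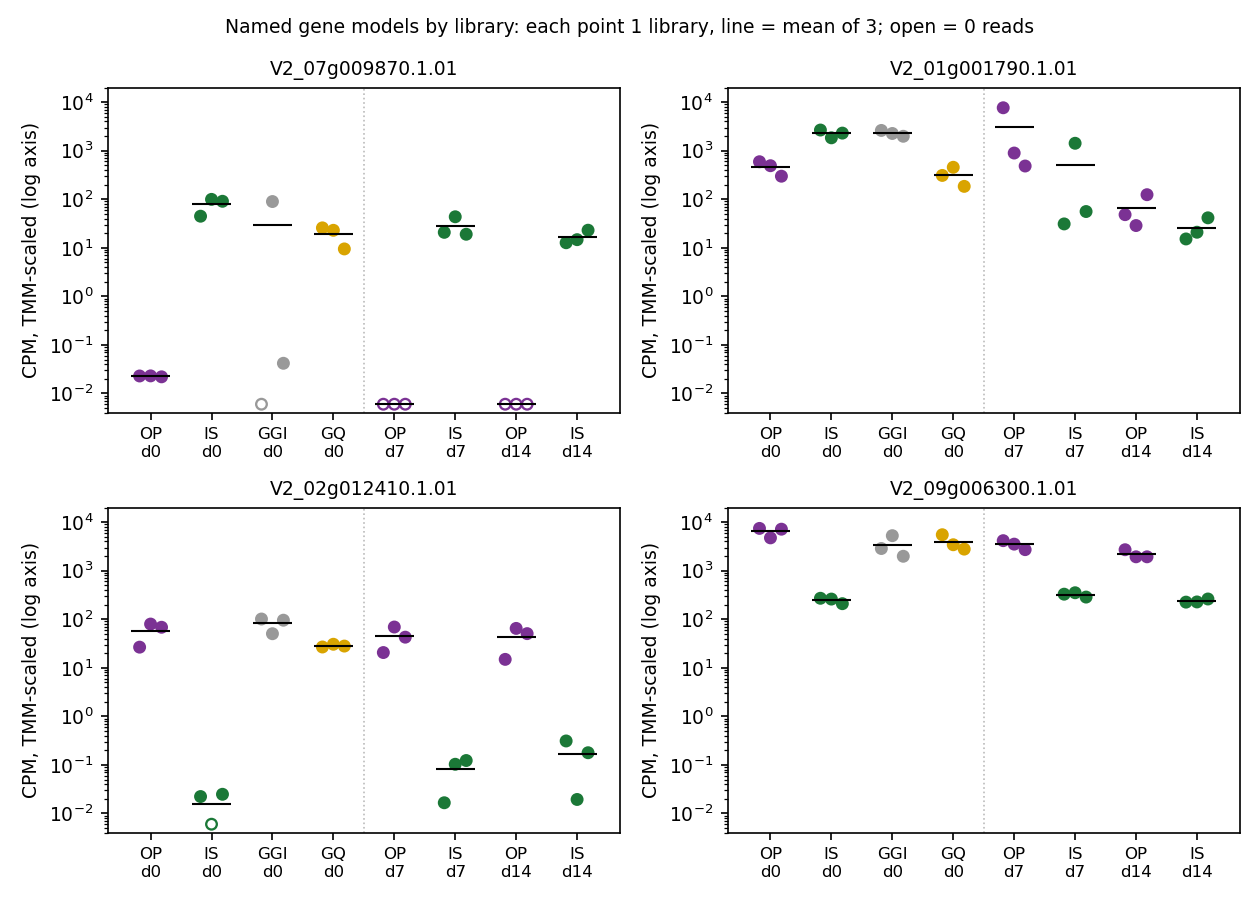
CPM (log axis, TMM-scaled over all libraries) of the 4 named gene models, with 1 point per library and a line at the mean of 3; open points at the lower edge have 0 reads. V2_07g009870.1.01 and V2_02g012410.1.01 keep their IS-OP contrast at days 7 and 14, V2_09g006300.1.01 stays lower in every IS library than in any OP library, and V2_01g001790.1.01 overlaps between IS and OP at day 14.

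Some differences amounted to presence against absence. At day 0, 71 gene models were on in IS (over 1 CPM in all 3 libraries) and off in OP (under 0.1 CPM in all 3), and 95 were on in OP and off in IS. In the off cultivar 45 of the 71 and 56 of the 95 had no read at all. Most were transcribed at a low level where on, with medians of 4.61 and 4.06 CPM, and 17 and 21 exceeded 10 CPM. The highest mean was 95.8 CPM among those on in IS and 70.9 CPM among those on in OP.

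The other cultivars did not side with either one throughout. Here on was read as above 0.316 CPM, the geometric mean of both thresholds. Of the 95 on in OP, GQ had 80 on in all 3 libraries and 11 off in all, and GGI had 41 on and 37 off. Of the 71 on in IS, GQ had 31 on and 35 off, and GGI had 27 on and 19 off. GGI libraries disagreed with each other in 25 of these 71, as in V2_07g009870.1.01. In 40 of the 95, both GGI and GQ were on in all libraries, so that IS alone was off. In 15 of the 71 both were on, so that OP alone was off.

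Libraries of one cultivar also differed in this way. Gene models over 1 CPM in at least 1 library and under 0.1 CPM in another numbered 111 within IS and 141 within OP, and 3 were in both sets. For comparison there were 275 in GGI and 101 in GQ. In OP, 66 of the 141 were on in replicate 3 alone. In IS, 32 of the 111 were on in replicate 2 alone and 35 were off in replicate 1 alone. Without OP replicate 3 the OP count was 36, without OP replicate 2 it was 65, and without IS replicates 1, 2 or 3 the IS count was 42, 36 or 72.

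Among all 6261 calls, GQ was mostly nearer to OP. On group means of log2 CPM, GQ lay nearer to OP than to IS in 88.2% of those higher and 91.1% of those lower in IS. GGI was nearer to IS in 58.5% of those higher and 48.9% of those lower. In 2695 both GGI and GQ were nearer to OP, in 2922 GGI was nearer to IS and GQ to OP, and in 428 both were nearer to IS. In the same fit OP against GQ gave 324 calls (1.57%), IS against GQ 8784 (42.6%) and IS against GGI 3911 (19.0%). These comparisons share libraries, and their counts were not tested against each other.

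Libraries of the later days gave a separate reading of the same cultivars. At day 14, IS against OP called 5008 of 19375 gene models (25.8%), 2437 higher (12.6%) and 2571 lower (13.3%). Of the day 0 calls tested at day 14, 785 of 2680 higher in IS were called higher again (29.3%) and 105 were called lower. Of those lower in IS, 980 of 3059 were called lower again (32.0%) and 184 were called higher. Over all day 0 calls, tested or not, those called again in the same direction make up 26.2% of the higher and 30.0% of the lower. Among those tested, the sign was kept in 74.4% of the higher and 72.7% of the lower, where 49.6% of all tested gene models were positive and 50.4% negative. The number of day 14 calls was 2996 without IS day 14 replicate 1 and 2247 without replicate 2, and without that replicate 2 the same-direction calls were 1034 in place of 1765.

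By size of the day 0 difference, all 2607 calls under 2-fold were tested at day 14, but only 1734 of 1798 at 2- to 4-fold, 907 of 1094 at 4- to 16-fold and 491 of 762 over 16-fold. The others were too low for the day 14 filter, which a gene model near 0 in one cultivar passes through the other. Over all calls of a class, tested or not, a call in the same direction followed in 20.0%, 29.4%, 35.1% and 43.6%. On that base the sign was kept in 67.5%, 72.9%, 65.2% and 56.8%, with gene models not tested counted as not kept. Among those tested it was kept in 67.5%, 75.5%, 78.6% and 88.2%. The share with the sign kept did not rise with the size over all calls, and it did among those tested. The filter bears on both, since it sets which gene models were tested.

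Day 7 gave few calls. IS against OP called 14 of 19664 gene models (0.0712%), 5 higher (0.0254%) and 9 lower (0.0458%), with 2204 at an unadjusted p under 0.05 (edgeR), and DESeq2 called 1448. OP day 7 replicate 1 held 5.76 M reads in gene models and 71.0% of its listed reads outside them. Without it 294 of 20558 were called (1.43%), 111 higher (0.54%) and 183 lower (0.89%). Of the 294, 230 were day 0 calls in the same direction, where 14.5% of all tested at day 0 were called higher and 15.8% lower. The biological coefficient of variation was 0.640 in the day 7 fit and 0.472 without that library, against 0.302 at day 14 and 0.345 at day 0. With edgeR there was no call without OP day 7 replicate 2 or 3 or without IS day 7 replicate 1 or 3, where 2222, 2034, 1316 and 1221 gene models had an unadjusted p under 0.05. Without OP day 7 replicate 1, and among those tested, the sign of the day 0 call was kept in 62.6% of the higher and 56.0% of the lower, where 52.2% of all were positive and 47.8% negative. By size of the day 0 difference it was kept in 49.3% of 2607 tested under 2-fold and 61% of 1788 at 2- to 4-fold. The shares were 67.8% of 1055 at 4- to 16-fold and 80% of 631 over 16-fold.

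A change of the IS-OP difference since day 0 was tested over the 18 IS and OP libraries. It passed for 628 of 21204 gene models at day 7 (2.96%) and for 245 at day 14 (1.16%). Without OP day 7 replicate 1 it passed for 1860 of 21599 (8.61%) and 1725 (7.99%). Other libraries moved the counts too: 2624 passed at day 7 without IS day 7 replicate 2, and 101 without IS day 0 replicate 3.

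**Figure D4:**
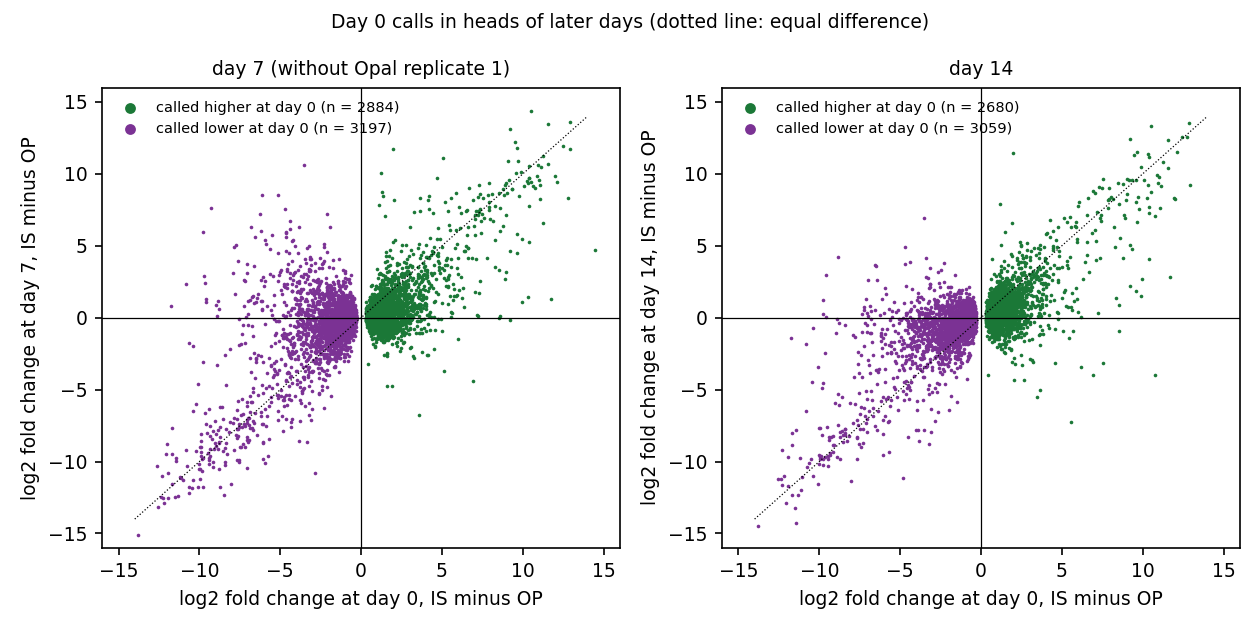
Log2 fold change, IS minus OP, at day 7 (left, without OP replicate 1) and day 14 (right) against that at day 0; each point is 1 gene model called at day 0 and tested on the later day. Large day 0 differences scatter widely on the later days, some near the dotted line of equality and others near 0 or of the opposite sign. Of those tested at day 14, 74.4% of the higher and 72.7% of the lower keep their sign.

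The named gene models kept or lost their contrast in different ways. V2_02g012410.1.01 stayed near absent in IS, with 12 reads over the day 7 libraries and 21 over the day 14 libraries, against 44.1 ± 24.3 and 43.4 ± 25.6 CPM in OP (SD, n = 3 each). It was called at day 7 (edgeR, adjusted p = 0.0485) and at day 14 (adjusted p = 0.00153). The day 7 call was lost without OP day 7 replicate 2 or 3 or without IS day 7 replicate 1 or 3, where no gene model was called. V2_07g009870.1.01 had 0 reads in all OP libraries of days 7 and 14, and 27.8 ± 13.7 and 16.8 ± 5.49 CPM in IS (SD, n = 3 each). It was not called at day 7 with all libraries (edgeR, adjusted p = 0.0565), and it was called without OP day 7 replicate 1 (adjusted p = 0.0312) and at day 14 (adjusted p = 0.00059). On the same scale, a floor of 3 counts per library allows up to 0.837 CPM in OP day 7 replicate 1 and up to 0.0947 CPM in each other OP library of these days.

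For V2_09g006300.1.01, IS held 322 ± 33.0 CPM at day 7 and 238 ± 20.5 CPM at day 14, close to its day 0 level, while OP held 3460 ± 720 and 2190 ± 446 CPM (SD, n = 3 each). At day 7 it was not called with all libraries (edgeR, adjusted p = 0.0652), and it was called without OP day 7 replicate 1 (adjusted p = 0.0242). The cultivars differed at day 14, by -3.17 on the log2 scale (edgeR, adjusted p = 0.000364). Whether the difference had narrowed was not settled. The change in the difference from day 0 to day 14 was 1.54 on the log2 scale with all libraries (edgeR, adjusted p = 0.0583) and 1.55 without OP day 7 replicate 1 (adjusted p = 0.0150). V2_01g001790.1.01 varied widely between libraries at day 7, with 31.0, 1420 and 55.8 CPM in IS and 7650, 894 and 483 CPM in OP. It stood at 25.8 ± 13.8 CPM in IS and 66.9 ± 50.3 CPM in OP at day 14 (SD, n = 3 each). These levels overlapped and the test was not passed (edgeR, adjusted p = 0.131).

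Presence against absence was mostly seen again at day 14, and less so at day 7 for those on in OP. At day 14, 53 of the 71 gene models on in IS were still on in all IS and off in all OP libraries, and 61 of the 95 on in OP showed the reverse. At day 7 the counts were 57 of the 71 and 36 of the 95, and without OP day 7 replicate 1 they were 57 and 76. Kept at both days were 49 of the 71 and 30 of the 95, and without that library 49 and 60. A count of 3 reads in that library is already 0.521 CPM without TMM scaling, the scale of these states, and above the level read as on. In that library an off state therefore cannot be told from a low level. The lower day 7 count with it was seen only among those on in OP. Of these 95, 44 were on in all OP day 7 libraries. Whether the depth of that library or its reads outside gene models caused this was not tested. Of the 166 states, each of the other 11 IS and OP libraries of days 7 and 14 held 141 to 162 in the state of its labelled cultivar, and OP day 7 replicate 1 held 112.

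The day 0 calls were also read in the storage change of GGI and GQ, a comparison added after the data were seen, whose contrast uses no IS or OP library. From day 0 to day 14, as the mean of GGI and GQ, 6666 of 20739 gene models rose (32.1%) and 6560 fell (31.6%). Of the 2878 higher in IS at day 0 and tested there, 1471 fell (51.1%) and 443 rose (15.4%). Of the 3223 lower in IS, 1402 rose (43.5%) and 670 fell (20.8%). The median log2 change was -0.62 for those higher in IS and 0.336 for those lower, against -0.0169 for all. Of 99 gene models on in one of these cultivars and off in the other at day 0, the day 14 library labelled GGI replicate 1 had 91 in the GQ state, and the one labelled GQ replicate 1 had 71 in the GGI state. Without both libraries the shares were 48.7% and 41.4%, where 29.3% of all 21003 tested fell and 29.2% rose. Among the named, V2_01g001790.1.01 fell by 4.60 on the log2 scale over this time in GGI and GQ (edgeR, adjusted p = 0.000225), and V2_09g006300.1.01, which is lower in IS, fell by 2.55 (adjusted p = 0.000556). The test was not passed for V2_07g009870.1.01, at -2.83 (edgeR, adjusted p = 0.0976), or V2_02g012410.1.01, at -0.82 (adjusted p = 0.146).

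**Figure D5:**
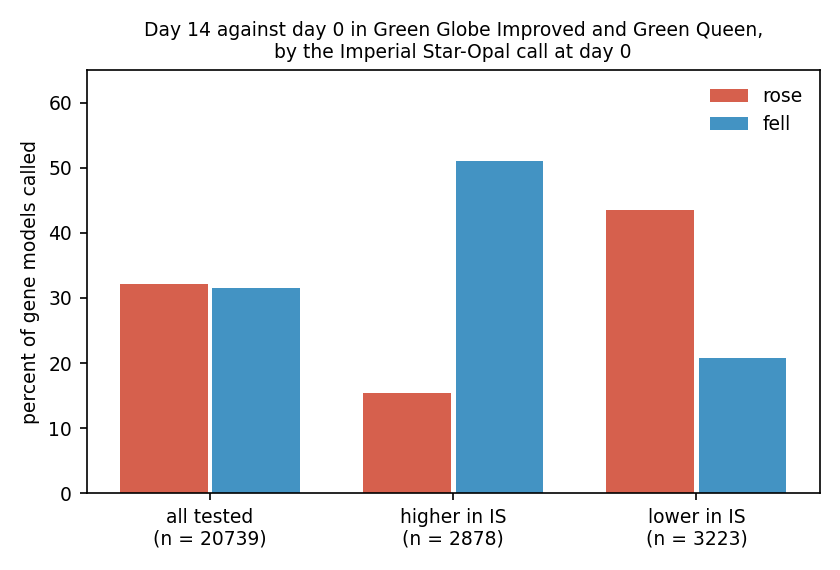
Percent of gene models that rose or fell from day 0 to day 14 in GGI and GQ (edgeR, adjusted p under 0.05), for all tested and for those called higher or lower in IS at day 0. Those higher in IS fell in 51.1%, and those lower in IS rose in 43.5%, against 31.6% and 32.1% of all.

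Calls were spread over the whole range of IDs. The number after the V2 prefix takes values from 1 to 17, and between 25.1% (number 16) and 32.8% (numbers 5 and 12) of the tested gene models of a number were called. Those without such a number gave 45 calls of 125 (36.0%). On-off gene models ranged from 2 of 859 tested in number 16 to 25 of 1897 in number 2, against 166 of all 20628. Relative to those tested they were more frequent in number 7 (13 of 786) and among those without a number (7 of 125). A gene model called higher in IS was followed in the ID order by another higher one in 18.1% of cases, where 14.5% of all were higher, and one called lower by another lower one in 18.7%, where 15.8% of all were lower. Runs of 4 or more neighbours in one direction numbered 38 and held 167 gene models, and the longest held 7 in either direction. Positions are not given, so the ID order is not taken as a distance.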

How the data were processed

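The authors deposited 1 table per library with raw read counts for 28632 gene models and 5 summary rows for unassigned reads, which held 14.7% to 19.5% of the reads listed in the 6 IS and OP day 0 libraries and were left out. The submitters' processing notes list STAR and cutadapt. The sources used here do not give the counting tool, genome build, annotation or strand setting, so counts of near-identical or overlapping gene models are uncertain. Groups and replicate numbers come from sample titles.

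Counts were analysed with edgeR 4.0.16 in R 4.3.3: filterByExpr (minimum count 10, minimum total 15), TMM scaling, estimateDisp and glmQLFit with robust estimation and glmQLFTest, Benjamini-Hochberg adjustment over all gene models tested, threshold 0.05. The 12 day 0 libraries share 1 fit; days 7 and 14 were fitted on their IS and OP libraries, and changes of the IS-OP difference on the 18 IS and OP libraries. DESeq2 1.42.0 was an alternative. SE is the absolute log2 fold change over the square root of F. On-off counts used CPM without TMM. CPM of named gene models are scaled over all 36 libraries, and the principal components were taken from log2 CPM (prior count 2). The fits were also run on simulated counts drawn from their own estimates, with far fewer changed gene models than were called here. Those runs do not bear on how the calls depend on single libraries.

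In each direction, the named gene models are that with the largest fitted fold change and that with the highest mean CPM among those past 4-fold. Both were taken from calls without overlap, averaging at least 1 in log2 CPM and holding at least 10 reads in each library of the higher cultivar. Members, thresholds and rules were chosen with earlier results of these data known.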

Additional observations from a re-analysis of the deposited data

Results flagged for a closer look

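The difference between IS and OP was tested for a change between days, and gene models passed at both later days. At day 7, 628 of 21204 gene models differed from day 0 in their IS-OP difference (edgeR interaction test, adjusted p under 0.05), 489 toward IS and 139 toward OP. At day 14 there were 245, of which 139 moved toward IS and 106 toward OP. Without OP day 7 replicate 1, which holds the fewest reads in gene models, the counts were 1860 (1143 toward IS, 717 toward OP) and 1725 (1081 and 644). Both counts rest on single libraries, as described next, and the part of that library's depth in them was not tested.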

How the results depend on the processing

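The day 0 count of 6261 lay between 5549 and 7724 under RLE scaling, DESeq2, no filter on low counts and the replicate number as a block. It was 4069 with the 6 libraries alone (1992 lower in IS) and 1687 with all 36 (638 higher, 1049 lower). With 1 of 12 libraries left out it ran from 3897 to 6985, with 1861 to 3239 higher and 1946 to 3746 lower. Of the named gene models, V2_01g001790.1.01 lost its call with all 36 libraries and V2_07g009870.1.01 without OP day 0 replicate 3; no direction of the 4 turned under any of these alternatives. The cause of the changes was not tested. The day 7 count of 14 was 39 without a filter, 1448 with DESeq2, 0 with the replicate block (1123 at an unadjusted p under 0.05) and 0 to 294 with 1 library left out; day 0 calls repeated at day 7, 13 in all, were 38, 635, 0 and 0 to 230. At day 14, leaving out 1 library gave 2247 to 6042 calls and 1034 to 1944 repeated ones. Changes in the IS-OP difference numbered 2451 at day 7 and 1476 at day 14 with DESeq2, 8 and 7 with the block, and 101 to 2624 and 26 to 1725 with 1 library left out. Only leaving out IS day 0 replicate 1 or, at day 7, OP day 7 replicate 3 and, at day 14, OP day 14 replicate 3 moved these by less than 1.5 times among the libraries of the days compared. Deviations of same-numbered IS and OP libraries correlated at -0.159, 0.173 and -0.204 across gene models. Those of differently numbered ones lay between -0.214 and 0.304. With 3 libraries per cultivar these values cannot decide whether replicate numbers pair the libraries. With on set over 2 CPM, 52 gene models were on in OP and off in IS; mixed ones numbered 33 in IS and 63 in OP, 57 and 81 with off under 0.05 CPM, and 36 to 72 and 36 to 101 with 1 library left out. The on-off counts with 1 library left out were 76 to 96 and 100 to 113. Of the gene models tested at under 1 CPM, 25.0% were called, against 30.6% to 32.6% in the classes above; how depth bears on this was not tested.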
